A study of Mus musculus with 6 samples.

Results

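The genes that encode chromatin-modifying enzymes were followed in CMT93, a long-established line from a mouse colorectal carcinoma, grown as spheroids. Members were taken by gene symbol alone. They were rows of the count table beginning with Kdm, Kmt2, Kmt5, Setd, Hdac, Sirt, Kat, Prmt, Dnmt1, Dnmt3, Tet, Ezh, Suv39h, Ehmt or Nsd. In most families a number within a fixed range had to follow the name, so that Kat14, for example, was not a member. This gave 86 of 23399 rows, of which 45 were writers and 41 were erasers by family. Of these, 81 were enzyme genes, and the other 5 (Dnmt3bos, Hdac1-ps, Kat2b-ps, Kdm6bos and Setd9-ps) carried symbols of pseudogenes or antisense transcripts. In 3 libraries the cells had been kept in 200 µM sodium palmitate, a saturated fatty acid given in ethanol and bound to bovine serum albumin. The other 3 libraries came from cells given the same ethanol and albumin without palmitate, called vehicle here. Both groups were wild type, and both were exposed for 1 week as a monolayer and then for 5 days as spheroids on soft agar with Matrigel. Polyadenylated RNA was counted from 1 cell line, and the labels number the samples without saying whether they were separate cultures, so p-values measure how much these libraries vary, and that variation may be technical only.

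Writers place chemical marks on histones or DNA and erasers take them off. Acetyltransferases use acetyl-CoA and methyltransferases use S-adenosylmethionine, while sirtuins consume NAD and the JmjC demethylases and TET enzymes need 2-oxoglutarate, so the enzymes draw on metabolites that fatty acid oxidation and one-carbon metabolism also handle. In colorectal epithelium and its tumours, several of them, including EZH2, DNMT1 and the class I histone deacetylases, are known for holding cells in a proliferating, less differentiated state.

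Most enzyme genes differed little between palmitate and vehicle, and a few differed clearly. Nsd1, a histone H3 lysine methyltransferase, was 3.27-fold higher with palmitate, and Hdac5, a class IIa histone deacetylase, was 1.89-fold higher. Dnmt3b, a de novo DNA methyltransferase, and Kat2a (GCN5), an acetyltransferase, were 1.42-fold and 1.28-fold higher. Hdac11, the class IV histone deacetylase, was the clear fall, to 0.582 times its vehicle level. Of the 86 rows, 80 passed the filter on low counts, and 36 of these were called, meaning that edgeR's quasi-likelihood test (two-sided) gave a p below 0.05 after adjustment over all 14987 tested genes. That is 45% of the tested members, against 52.8% of all tested genes, so the share of members called did not exceed the background. There were 25 members higher with palmitate, against a background of 27.4% of tested genes, 11 lower, against 25.4%, and 44 not called. With bulk RNA, more cells expressing a gene and more RNA of it per cell cannot be told apart.

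The members' changes were small beside those of other genes. The interquartile range of the members lay between -0.05 and 0.13 on the log2 scale, against -0.18 and 0.14 for all tested genes. These ranges differed mainly on the lower side, and genes were not matched by level. Just 3 members, Nsd1, Hdac5 and Hdac11, were both called and changed at least 1.5-fold, where 11.7% of all tested genes were. Against a minimum fold of 1.2 (edgeR glmTreat), 5 members passed, Nsd1, Hdac5, Dnmt3b, Kat2a and Hdac11, where 15.2% of all genes did. All 3 palmitate libraries lay above or below all 3 vehicle libraries for 42 members, against a background of 57.8%. The palmitate libraries were above for 26 of them, against 29.7% of all tested genes, and below for 16, against 28.1%. In the authors' deposited table, 27 members had a q-value under 0.05 (20 higher and 7 lower). Over all 23399 rows the share was 24.2%, but 8412 of those rows did not pass the filter on low counts. Of the 86 member rows 6 did not pass, so these shares are not on the same footing.

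The 6 rows that were not tested were Dnmt3bos, Kat2b-ps, Kdm6bos, Setd9-ps, Kdm4d and Kdm5d. Kdm5d, a demethylase gene of the Y chromosome, had 2, 4 and 1 counts in the palmitate libraries and 7, 9 and 8 in the vehicle libraries. Kdm4d, a demethylase best known from testis, had 3, 2 and 5 counts with palmitate and 5, 5 and 4 with vehicle. These counts were too low to carry a comparison, although with no count filter Kdm5d was called lower and Kdm4d was not called.

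**Figure D1:**
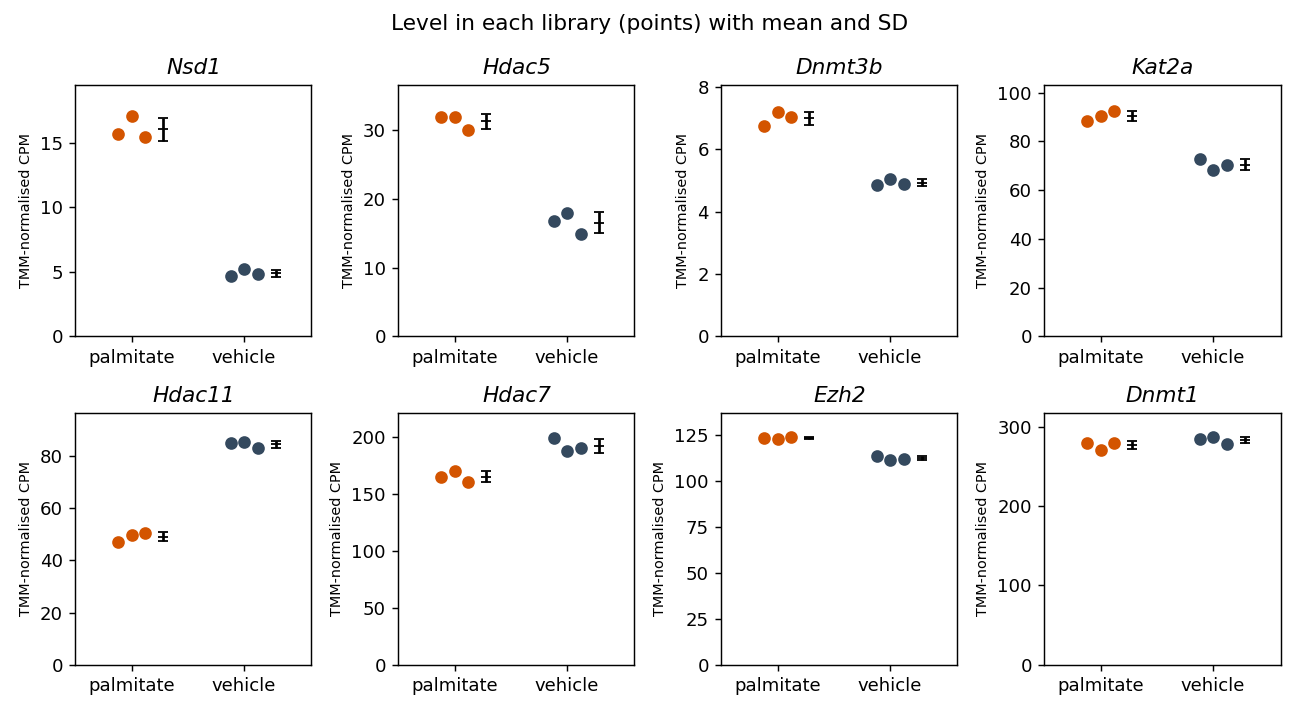
TMM-normalised CPM (counts scaled to a common library size) of 8 enzyme genes in each library, palmitate left and vehicle right, with the mean and SD of 3 libraries beside the points; each vertical axis starts at 0. The groups are far apart for Nsd1, Hdac5 and Hdac11, apart by less for Dnmt3b, Kat2a, Hdac7 and Ezh2, and overlap for Dnmt1.

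Promoter sequences are shown for those of the 5 leading genes that the RefSeq table holds, because these members changed most and their windows can be compared for shared motifs. Windows run from 250 bases before to 50 bases after an annotated start, 5′ to 3′ on the gene's own strand, from RefSeq on build GRCm38.p6, an earlier build than the counts were made on. They lie at chr11:102230123-102230422 on the minus strand for Hdac5, chr6:91156565-91156864 on the plus strand for Hdac11, chr2:153649199-153649498 on the plus strand for Dnmt3b and chr11:100712418-100712717 on the minus strand for Kat2a. Capitals mark the GC box GGGCGG, read by Sp and KLF factors, and the E-box CACGTG, on either strand.
Hdac5: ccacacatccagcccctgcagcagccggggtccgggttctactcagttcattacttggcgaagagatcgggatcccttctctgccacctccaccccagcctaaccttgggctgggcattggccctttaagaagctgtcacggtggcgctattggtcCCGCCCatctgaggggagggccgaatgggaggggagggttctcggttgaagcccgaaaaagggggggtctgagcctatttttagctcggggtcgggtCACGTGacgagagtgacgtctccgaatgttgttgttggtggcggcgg
Hdac11: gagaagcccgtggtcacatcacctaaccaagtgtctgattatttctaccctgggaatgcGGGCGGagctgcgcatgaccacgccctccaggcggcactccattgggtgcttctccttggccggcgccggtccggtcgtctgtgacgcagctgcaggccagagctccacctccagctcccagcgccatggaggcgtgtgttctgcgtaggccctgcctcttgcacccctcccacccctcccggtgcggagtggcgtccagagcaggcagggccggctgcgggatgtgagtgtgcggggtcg
Dnmt3b: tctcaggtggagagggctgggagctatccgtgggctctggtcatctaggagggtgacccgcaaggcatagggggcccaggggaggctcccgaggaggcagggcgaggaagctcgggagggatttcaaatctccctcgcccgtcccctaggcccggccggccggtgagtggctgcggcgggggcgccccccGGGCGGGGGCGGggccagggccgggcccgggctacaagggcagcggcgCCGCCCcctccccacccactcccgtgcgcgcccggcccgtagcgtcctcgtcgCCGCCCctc
Kat2a: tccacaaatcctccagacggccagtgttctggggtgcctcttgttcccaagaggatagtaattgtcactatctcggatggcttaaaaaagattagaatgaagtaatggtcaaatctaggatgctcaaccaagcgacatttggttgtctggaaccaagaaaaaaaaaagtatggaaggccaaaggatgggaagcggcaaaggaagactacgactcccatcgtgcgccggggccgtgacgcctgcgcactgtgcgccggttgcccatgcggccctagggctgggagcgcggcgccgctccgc
The Hdac5 window held 1 GC box and 1 E-box, the Hdac11 window 1 GC box, the Dnmt3b window 4 GC boxes and the Kat2a window none of the motifs searched. No searched motif was in all 4 windows.

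Of the 81 enzyme genes, 66 matched an entry in the RefSeq table by symbol, with 92 start sites between them. A GC box stood in 64.1% of these windows, against 35.7% of all 32851 windows in the table, and in 65.0% of the windows of called enzyme genes. The E-box was in 10.9% of enzyme windows against 7.15% of all windows. The E2F motifs TTTCCCGC and TTTGGCGC were in 4.35% against 1.56%, and the cyclic AMP response element TGACGTCA in 2.17% against 1.79%. The spaced direct repeat called DR1, bound by PPAR with RXR, was in none of the enzyme windows and in 0.0396% of all windows. Enzyme windows had a median of 22 CpG and 61.7% GC, against 7 CpG and 52.7% GC over all windows, and motifs rich in G and C are met more often in such sequence.

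Position on the chromosome went along with many of the rises, and this was looked at after the values were seen. Among tested genes of at least 5 CPM, the median log2 fold change was 0.14, 0.15 and 0.21 on chromosomes 8, 11 and 12. Chromosome 2 stood at 0.09 and the others between -0.06 and 0.05. Of the genes of at least 5 CPM on chromosomes 8, 11 and 12, 65.8%, 67.6% and 78.2% were called higher with palmitate. The members below were counted without this cut. Of the 14 tested members on these chromosomes, 13 were higher and 1 lower, with a median of 0.25. Of the 66 members elsewhere, 12 were higher, 10 lower and 44 not called, with a median of -0.00065.

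When each gene was tested relative to the median of 100 neighbouring genes (50 of at least 5 CPM on each side), 32 members were called, 18 higher and 14 lower, against 25 and 11 without this step. Over all 14987 tested genes that setting called 3050 higher and 4044 lower. Of the 25 members called higher, 17 stayed higher, 5 (Kat6a, Dnmt3a, Hdac9, Prmt9 and Kmt2a) were no longer called, and 3 (Ezh1, Setd3 and Nsd3) became lower. Of the 11 called lower, 9 stayed lower, and Setd7 and Kmt5c were no longer called. Prmt3 became higher, and Ehmt1 and Kdm5a lower. Among the 8 nearest tested neighbours, 7 were higher and 0 lower around Hdac5, 8 higher around Kat2a and 5 higher and 1 lower around Dnmt3b. Around Nsd1 and around Hdac11, 1 neighbour was higher and 3 were lower in each case. Nsd1, Hdac5, Dnmt3b, Kat2a and Hdac11 kept their calls relative to their neighbours, at log2 differences of 1.70, 0.69, 0.35, 0.16 and -0.77. What part the position had in the members' changes was not tested.

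**Figure D2:**
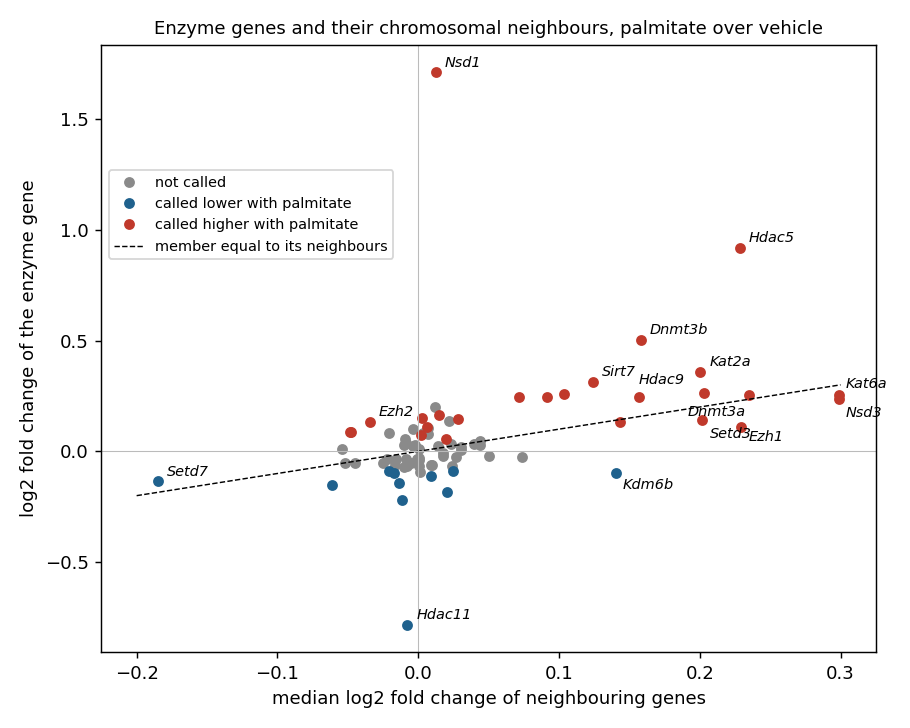
Log2 fold change (palmitate over vehicle) of each tested enzyme gene on the vertical axis against the median log2 fold change of its 100 neighbouring genes on the horizontal axis, coloured by call, with a dashed line where both are equal. Nsd1 and Hdac11 lie far from the line at neighbour medians near 0, Hdac5, Dnmt3b and Kat2a lie above it, and Dnmt3a, Kat6a, Nsd3, Setd3 and Ezh1 lie near or below it at neighbour medians of 0.20 to 0.30.

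Among the writers, all 4 methyltransferases of histone H3 lysine 36 were higher with palmitate, although Nsd3 was lower relative to its chromosomal neighbours. Nsd1 (ENSMUSG00000021488.9), which adds up to a pair of methyl groups to this lysine, had 350, 385 and 350 counts in the palmitate libraries and 89, 114 and 104 in the vehicle libraries. In CPM these were 15.7, 17.1 and 15.4 with palmitate, against 4.69, 5.19 and 4.80 with vehicle. Each palmitate library stood about 3 times above every vehicle library. The means were 16.1 ± 0.902 and 4.89 ± 0.262 CPM (SD, n = 3 libraries each), for a log2 fold change of 1.71 (SE 0.0860, edgeR adjusted p = 2.34e-31). The authors' deposited table gave 1.72 on the log2 scale for this gene, which was the greatest rise among the members and the 60th of all tested genes. Per kilobase of exon, Nsd1 was the lowest tested member with vehicle, at 0.280 CPM per kb, and it stood at 0.918 with palmitate.

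The relatives of Nsd1 changed far less. Nsd2 (MMSET), a dimethyltransferase known for its overexpression in myeloma, had 351, 343 and 348 CPM with palmitate, against 322, 319 and 324 CPM with vehicle (log2 fold change 0.11, SE 0.0182, edgeR adjusted p = 1.60e-07). Nsd3 averaged 127 CPM with palmitate and 108 CPM with vehicle, a log2 rise of 0.24. Its neighbours on chromosome 8 had a median log2 fold change of 0.30, and relative to them Nsd3 was lower by 0.06 (edgeR adjusted p = 0.0482). Setd2, which adds the third methyl group to lysine 36 behind elongating polymerase, averaged 169 CPM with palmitate and 160 CPM with vehicle (log2 fold change 0.07). The call for Setd2 was lost without vehicle replicate 2 (0.06, edgeR adjusted p = 0.0589) and with DESeq2 as run here. The authors' deposited table, also from DESeq2, gave Setd2 a q-value of 0.0452.

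Among the acetyltransferases, 3 of 7 tested members were higher, 1 was lower and 3 were not called. Kat2a (ENSMUSG00000020918.15), the catalytic subunit of SAGA and ATAC complexes, had 88.3, 90.3 and 92.6 CPM with palmitate, against 72.9, 68.4 and 70.3 CPM with vehicle. The groups were clear of each other, and the log2 fold change was 0.36 (SE 0.0313, edgeR adjusted p = 1.47e-17), or 0.16 relative to its neighbours on chromosome 11. Its close relative Kat2b (PCAF) had 59.4, 57.3 and 56.4 CPM with palmitate, against 58.9, 52.6 and 56.5 CPM with vehicle, which overlapped (0.05, SE 0.0371, edgeR adjusted p = 0.311). Kat6a (MOZ), an H3 acetyltransferase, averaged 206 ± 3.36 CPM with palmitate and 173 ± 1.37 CPM with vehicle (0.25, SE 0.0214, edgeR adjusted p = 2.87e-18). Its neighbours on chromosome 8 had a median of 0.30, and relative to them it differed by -0.04 and was not called. Kat7 (HBO1), which acetylates H3 lysine 14 at replication origins and promoters, was 0.25 higher on the log2 scale and 0.09 higher relative to its neighbours on chromosome 11. Kat8 (MOF), which acetylates H4 lysine 16, was the exception, with 13.1, 12.6 and 13.3 CPM with palmitate against 15.5, 14.5 and 14.4 CPM with vehicle (-0.18, SE 0.0681, edgeR adjusted p = 0.0194). The Kat8 call was lost without vehicle replicate 1 (-0.15, edgeR adjusted p = 0.0933), without palmitate replicate 2 (-0.16, edgeR adjusted p = 0.0790) and with DESeq2.

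The Kmt2 and Setd1 family moved little, with 1 of 7 members higher and 2 lower. Of these, 6 are H3 lysine 4 methyltransferases, and the other, Kmt2e, has no established histone substrate and was not called. Kmt2c (MLL3), which works at enhancers, averaged 155 ± 1.42 CPM with palmitate and 167 ± 3.68 CPM with vehicle (-0.11, SE 0.0228, edgeR adjusted p = 2.38e-05). Kmt2b was lower by a similar step, at -0.09. Kmt2d, the partner of Kmt2c at enhancers, averaged 221 CPM with palmitate and 226 CPM with vehicle and was not called (edgeR adjusted p = 0.171). Kmt2a (MLL1), known for its fusions in leukaemia, had 203, 211 and 215 CPM with palmitate and 206, 195 and 204 CPM with vehicle. These overlapped, and although Kmt2a was called higher (0.06, SE 0.0219, edgeR adjusted p = 0.0244), the call was lost without vehicle replicate 2 (0.03, edgeR adjusted p = 0.313), without palmitate replicate 2 (0.06, edgeR adjusted p = 0.0610) and without palmitate replicate 3 (0.04, edgeR adjusted p = 0.173), as well as with DESeq2.

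Among the writers of repressive H3 marks, both H3 lysine 27 methyltransferases were higher (Ezh1 was lower relative to its chromosomal neighbours) and none of the 4 tested lysine 9 methyltransferases was called. Ezh2, the catalytic subunit of Polycomb repressive complex 2 in dividing cells, had 123, 123 and 124 CPM with palmitate, against 114, 112 and 112 CPM with vehicle. The difference was small and every palmitate library was above every vehicle library (0.13, SE 0.0255, edgeR adjusted p = 5.12e-06). Ezh1, its counterpart in resting cells, averaged 60.7 ± 0.530 CPM with palmitate and 56.2 ± 0.481 CPM with vehicle (0.11, SE 0.0350, edgeR adjusted p = 0.00551). Ezh1 lies on chromosome 11 among neighbours with a median of 0.23, and relative to them it was lower by 0.12 (edgeR adjusted p = 0.00327), whereas Ezh2 stayed higher, by 0.17. DESeq2 did not call Ezh1. Suv39h1, which trimethylates lysine 9 in heterochromatin, averaged 56.7 CPM with palmitate and 55.6 CPM with vehicle (edgeR adjusted p = 0.539). Ehmt1 and Ehmt2 (GLP and G9a), which act as a pair in euchromatin, gave -0.06 and 0.02.

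The H4 lysine 20 methyltransferases held 0 higher and 1 lower of 3. Kmt5a, which places the first methyl group, averaged 260 CPM with palmitate and 255 CPM with vehicle and was not called (edgeR adjusted p = 0.220). Kmt5c, which completes the trimethyl mark, averaged 58.5 ± 1.49 CPM with palmitate and 62.6 ± 2.07 CPM with vehicle (-0.10, SE 0.0352, edgeR adjusted p = 0.0159). The Kmt5c call was lost without vehicle replicate 1 (-0.07, edgeR adjusted p = 0.123), without palmitate replicate 1 (-0.07, edgeR adjusted p = 0.111) and with DESeq2. Of the other SET domain genes, Setd6, which methylates the NF-kB subunit RelA, averaged 59.7 ± 0.500 CPM with palmitate and 50.5 ± 0.685 CPM with vehicle (0.24, SE 0.0360, edgeR adjusted p = 1.14e-08). Setd3, the histidine methyltransferase of actin, rose by 0.14 and was lower by 0.06 relative to its neighbours on chromosome 12. Setd7, which methylates H3 lysine 4 and several non-histone proteins, averaged 133 ± 2.47 CPM with palmitate and 146 ± 3.53 CPM with vehicle (-0.13, SE 0.0242, edgeR adjusted p = 1.73e-06). The genes around Setd7 on chromosome 3 had a median of -0.185, and relative to them it gave 0.05 and was not called.

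Arginine methyltransferases were higher in 3 of 7 and lower in 1. Prmt7, which makes monomethylarginine, averaged 107 ± 1.96 CPM with palmitate and 89.2 ± 1.33 CPM with vehicle (0.26, SE 0.0281, edgeR adjusted p = 2.71e-13), a difference of 0.16 relative to its neighbours on chromosome 8. Prmt1, the main source of asymmetric dimethylarginine, averaged 115 CPM with palmitate and 108 CPM with vehicle (0.09, SE 0.0264, edgeR adjusted p = 0.00444). Relative to its neighbours the difference was 0.13. DESeq2 as run here did not call Prmt1, whereas the authors' deposited DESeq2 table gave it a q-value of 0.0476. Prmt5, which makes the symmetric form, averaged 90.3 CPM with palmitate and 88.9 CPM with vehicle and was not called (edgeR adjusted p = 0.563). Prmt9 was 0.13 higher, and its call was lost without vehicle replicate 3 (0.10, edgeR adjusted p = 0.118) and without palmitate replicate 2 (0.11, edgeR adjusted p = 0.0868), as well as with DESeq2. Prmt2 averaged 19.2 CPM with palmitate and 21.3 CPM with vehicle (-0.15, SE 0.0565, edgeR adjusted p = 0.0250), and its call was lost without vehicle replicate 1 (-0.13, edgeR adjusted p = 0.0899) and without palmitate replicate 2 (-0.12, edgeR adjusted p = 0.103), as well as with DESeq2.

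Of 3 tested DNA methyltransferase genes, 2 were higher and 0 lower. Both were de novo enzymes, which set methylation on unmarked DNA, although Dnmt3a was not called relative to its chromosomal neighbours. The maintenance enzyme Dnmt1, which copies methylation at replication, was not called. Dnmt3b (ENSMUSG00000027478.16) had 6.76, 7.19 and 7.05 CPM with palmitate, against 4.85, 5.05 and 4.89 CPM with vehicle. It was a scarce transcript, at 151, 162 and 160 counts in the palmitate libraries and 92, 111 and 106 in the vehicle libraries, and the groups were well apart (0.50, SE 0.105, edgeR adjusted p = 2.74e-05). Dnmt3a had 78.0, 80.6 and 78.8 CPM with palmitate, against 66.4, 67.1 and 65.5 CPM with vehicle (0.26, SE 0.0320, edgeR adjusted p = 6.64e-11). Neighbours of Dnmt3a on chromosome 12 had a median of 0.235, and relative to them its difference was 0.02 (edgeR adjusted p = 0.642). Dnmt1 had 280, 271 and 280 CPM with palmitate and 285, 287 and 279 CPM with vehicle, which overlapped (-0.04, SE 0.0193, edgeR adjusted p = 0.120).

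**Figure D3:**
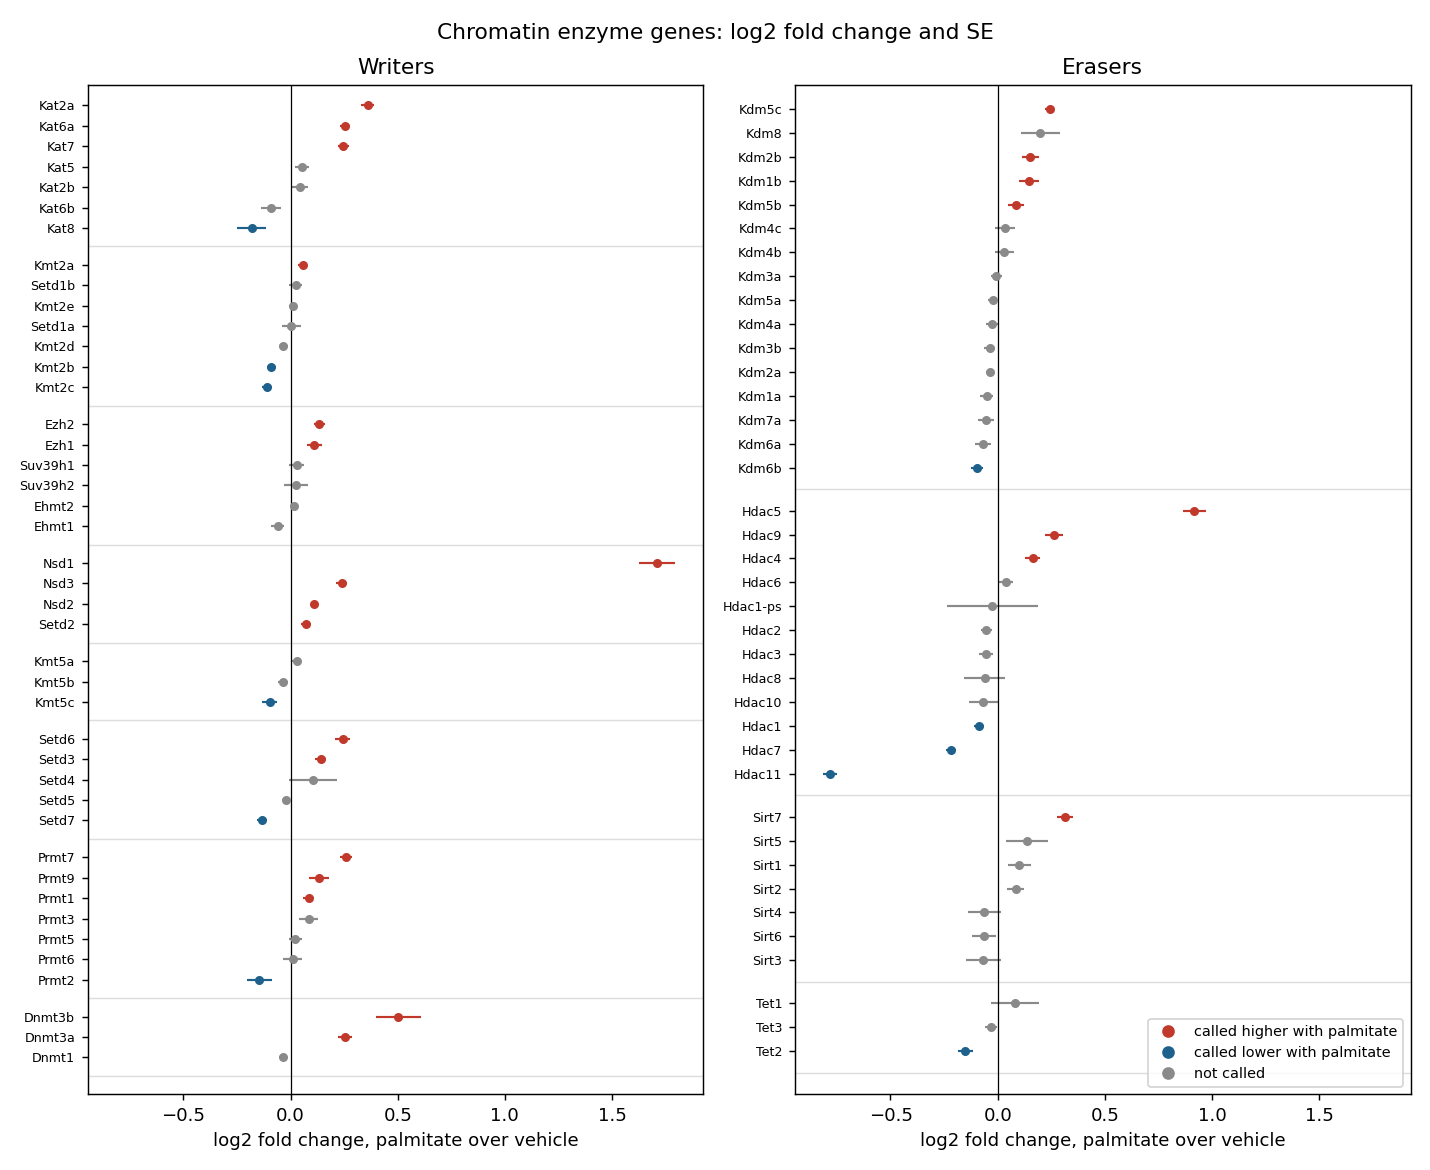
Log2 fold change (palmitate over vehicle, horizontal axis) with its standard error for each tested enzyme gene, writers in the left panel and erasers in the right, grouped by family; red was called higher, blue lower and grey not called. Nsd1 at 1.71, Hdac5 at 0.92 and Hdac11 at -0.78 lie outside the range of the other members, which runs from -0.22 to 0.50.

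Among the erasers, the classical histone deacetylases held the opposite extremes of the family, and 3 of 12 tested rows were higher and 3 lower. All 4 class IIa enzymes, which shuttle between nucleus and cytoplasm and act with MEF2 factors, were called. Hdac5 (ENSMUSG00000008855.18) had 31.9, 32.0 and 30.1 CPM with palmitate, against 16.7, 18.0 and 15.0 CPM with vehicle, close to a doubling in every library (0.92, SE 0.0559, edgeR adjusted p = 6.87e-26). Hdac9 averaged 46.7 ± 0.223 CPM with palmitate and 39.0 ± 0.883 CPM with vehicle, a log2 rise of 0.26 that was 0.06 and not called relative to its neighbours on chromosome 12. Hdac4 averaged 72.7 CPM with palmitate and 65.0 CPM with vehicle, a rise of 0.16. Hdac7 was the class IIa gene that was lower, with 165, 170 and 160 CPM with palmitate against 199, 187 and 190 CPM with vehicle (-0.22, SE 0.0230, edgeR adjusted p = 1.09e-13).

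Hdac11 (ENSMUSG00000034245.11), the class IV enzyme, removes long-chain fatty acyl groups from lysines more efficiently than acetyl groups. It had 47.2, 49.9 and 50.4 CPM with palmitate, against 85.2, 85.3 and 83.1 CPM with vehicle. The means were 49.2 ± 1.70 and 84.5 ± 1.27 CPM (SD, n = 3 libraries each), for a log2 fold change of -0.78 (SE 0.0340, edgeR adjusted p = 1.32e-35), the lowest adjusted p among the members. The authors' deposited table gave -0.78. Class I deacetylases, the nuclear enzymes of corepressor complexes, were nearly level. Hdac1 averaged 129 ± 0.823 CPM with palmitate and 137 ± 1.56 CPM with vehicle (-0.09, SE 0.0243, edgeR adjusted p = 0.00159), and a copy of it, Hdac1-ps, was counted apart at 1.55 CPM with palmitate and 1.58 CPM with vehicle, so reads may be split between them. Hdac2 averaged 124 CPM with palmitate and 129 CPM with vehicle (-0.05, edgeR adjusted p = 0.0708) and Hdac3 averaged 76.6 CPM with palmitate and 79.6 CPM with vehicle (-0.05, edgeR adjusted p = 0.144). Hdac2 was called lower without vehicle replicate 2 (-0.07, edgeR adjusted p = 0.0491) and without palmitate replicate 2 (-0.07, edgeR adjusted p = 0.0432).

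Sirtuins were mostly not called, with 1 of 7 higher. Sirt7, a nucleolar enzyme tied to ribosomal DNA transcription, had 52.4, 53.5 and 52.3 CPM with palmitate, against 41.2, 43.0 and 42.9 CPM with vehicle (0.31, SE 0.0386, edgeR adjusted p = 3.35e-11). Its neighbours on chromosome 11 had a median of 0.12, and it remained higher than they were by 0.19. Sirt1, a nuclear deacetylase of histones and transcription factors, had 26.6, 26.2 and 25.8 CPM with palmitate and 26.2, 21.8 and 25.6 CPM with vehicle (0.10, SE 0.0537, edgeR adjusted p = 0.109), and was called only without vehicle replicate 1 among the libraries left out (0.15, edgeR adjusted p = 0.0385). None of the 3 mitochondrial sirtuins was called. Sirt3, which deacetylates enzymes of fatty acid oxidation, averaged 9.51 CPM with palmitate and 9.98 CPM with vehicle (edgeR adjusted p = 0.518).

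Lysine demethylases were called in 5 of 16, 4 higher and 1 lower. Kdm5c, an H3 lysine 4 demethylase on the X chromosome, had 228, 233 and 226 CPM with palmitate, against 196, 195 and 189 CPM with vehicle (0.24, SE 0.0209, edgeR adjusted p = 8.52e-18), or 0.15 relative to its neighbours. Kdm2b, which brings a Polycomb repressive complex to CpG islands, and Kdm1b (LSD2) were both 0.15 higher, and DESeq2 called Kdm2b but not Kdm1b. Kdm5b averaged 52.8 CPM with palmitate and 49.7 CPM with vehicle (0.09, SE 0.0373, edgeR adjusted p = 0.0442). The Kdm5b call was lost without vehicle replicate 1 (edgeR adjusted p = 0.161), vehicle replicate 3 (0.0875), palmitate replicate 1 (0.0582) or palmitate replicate 2 (0.114), and with DESeq2. Kdm6b (JMJD3), an H3 lysine 27 demethylase induced in inflammation, averaged 108 ± 1.32 CPM with palmitate and 115 ± 5.62 CPM with vehicle (-0.10, SE 0.0278, edgeR adjusted p = 0.00245). The Kdm6b call was lost without vehicle replicate 3 (-0.06, edgeR adjusted p = 0.0816). It was the member on chromosome 11 that fell, and relative to its neighbours it was lower by 0.24. Kdm1a (LSD1), the flavin-dependent demethylase of corepressor complexes, averaged 91.7 CPM with palmitate and 94.9 CPM with vehicle (edgeR adjusted p = 0.140).

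TET enzymes oxidise methylcytosine, and 1 of 3 was called. Tet2 had 63.9, 68.1 and 67.3 CPM with palmitate, against 72.1, 73.2 and 75.7 CPM with vehicle (-0.15, SE 0.0331, edgeR adjusted p = 6.94e-05), with every palmitate library below every vehicle library. Relative to its neighbours Tet2 was lower by 0.09. Tet3 averaged 115 CPM with palmitate and 117 CPM with vehicle (edgeR adjusted p = 0.372). Tet1, the TET enzyme best known from embryonic stem cells, averaged 5.40 CPM with palmitate and 5.10 CPM with vehicle (edgeR adjusted p = 0.575).

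Writers as a class lay slightly above erasers. Of 42 tested writers, 17 were higher, 6 lower and 19 not called, so that 54.8% were called. Of 38 tested erasers, 8 were higher, 5 lower and 25 not called, so that 34.2% were called, where 52.8% of all tested genes were. Of the higher writers, Kat6a, Nsd3, Prmt7, Prmt9 and Setd6 lie on chromosome 8. Ezh1, Kat2a and Kat7 lie on chromosome 11, and Dnmt3a and Setd3 on 12. The erasers on these chromosomes were Hdac5, Sirt7 and Hdac9, which were higher, and Kdm6b, which was lower. What part this had in the contrast of the classes was not tested. Relative to neighbouring genes, writers held 11 higher and 8 lower, and erasers 7 higher and 6 lower. In that setting 3050 of all 14987 tested genes were higher and 4044 lower. The median log2 fold change was 0.04 for writers, -0.03 for erasers and 0.00068 for all tested genes. The difference of the medians, writers minus erasers, was 0.0624, and computed in each palmitate library against the vehicle mean it was 0.0666, 0.0640 and 0.0654. It was 0.0957 without vehicle replicate 1, 0.0393 without vehicle replicate 3 and 0.0344 relative to neighbouring genes, so its size varied with single vehicle libraries and with the neighbour setting. Summed over writers, the libraries held 4956, 4951 and 4952 CPM with palmitate, against 4796, 4758 and 4784 CPM with vehicle. Summed over erasers they held 2767, 2801 and 2774 CPM with palmitate and 2800, 2798 and 2821 CPM with vehicle, which overlap. No test of the difference between the classes was made.

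Per kilobase of exon, the 81 enzyme genes ranged in level from 0.0252 to 48.0 CPM per kb with vehicle, around a median of 8.55 CPM per kb. The highest were Kmt5a at 48.0, Ehmt2 at 47.0, Hdac1 at 39.6 and Dnmt1 at 38.5 CPM per kb, and Nsd1 (0.280), Tet1 (0.330) and Dnmt3b (0.965) were the lowest tested enzyme genes. These levels use exon lengths from the earlier annotation. The genes with the greatest rise, Nsd1, Hdac5 and Dnmt3b, were thus scarce among the members. Of the 4 highest, Hdac1 was called lower, and Kmt5a, Ehmt2 and Dnmt1 were not called.

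Ratios within a library compare near relatives without depending on how libraries are scaled, but they do not allow for position on the chromosome. For 13 pairs of paralogues the count ratio was tested by an exact permutation test over the 6 libraries, two-sided, whose smallest possible p is 0.1, or 0.163 after adjustment over the pairs, so no pair could pass a threshold of 0.05. Nsd2 stood to Nsd1 as 21.7 ± 1.42 with palmitate and as 65.9 ± 3.83 with vehicle (SD, n = 3 libraries each; exact p = 0.1). The Kat2a to Kat2b ratio was 1.57 ± 0.0783 with palmitate and 1.26 ± 0.0342 with vehicle, and that of Kat6a to Kat6b was 6.26 ± 0.186 with palmitate and 4.94 ± 0.372 with vehicle. Kat2a and Kat6a lie among neighbours with medians of 0.20 and 0.30 on the log2 scale, and Kat2b and Kat6b among neighbours with medians of 0.04 and 0.0016. Dnmt3b to Dnmt3a gave 0.0884 ± 0.00154 with palmitate and 0.0743 ± 0.00123 with vehicle, where the neighbour medians were 0.16 for Dnmt3b and 0.24 for Dnmt3a. The ratios Ehmt1/Ehmt2, Kmt2d/Kmt2c, Kdm5b/Kdm5a and Hdac1/Hdac2 also did not overlap between groups, with differences of -0.08, 0.08, 0.11 and -0.03 on the log2 scale. Those of Ezh2/Ezh1, Suv39h1/Suv39h2, Kdm6b/Kdm6a, Kdm4a/Kdm4c and Sirt1/Sirt2 overlapped.

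Genes that work with these enzymes were counted from 11 lists of complex subunits, other enzymes, readers and cofactor metabolism, 164 genes of which 160 were tested. Of these, 75 were higher, 20 lower and 65 not called, a share called of 59.4% against the background of 52.8%, with a median log2 fold change of 0.06. By direction, 46.9% were higher and 12.5% lower, against 27.4% and 25.4% of all tested genes. Relative to neighbouring genes, 50 were higher and 23 lower, where 3050 and 4044 of all 14987 tested genes were. The counts and values of single lists below do not allow for position on the chromosome unless stated. Among partners of the Kmt2 and Setd1 enzymes (the COMPASS complexes), 6 of 11 were higher and 0 lower. Ash2l, a core subunit needed for their activity, averaged 147 CPM with palmitate and 116 CPM with vehicle (0.34), Ncoa6 was 0.21 higher and Dpy30 0.20 higher. The list of deacetylase corepressor subunits held 12 higher and 0 lower of 21, but it left out the shared subunit Rbbp4, counted with Polycomb below. Mta1 (0.24), Sin3b (0.23) and Ncor1 (0.15) were among the higher, while Hdac1 itself was lower. Polycomb repressive complex 2 partners were higher in 3 of 9 and lower in 2. Phf19, which recruits the complex, averaged 23.2 CPM with palmitate and 16.2 CPM with vehicle (0.53), Suz12 was 0.22 higher, and the histone chaperone Rbbp4 was 0.11 lower.

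Acetyltransferase complexes held 10 higher and 2 lower of 25. That is 40% and 8%, against 27.4% and 25.4% of all tested genes, with 48% called against 52.8%. Ing2, a reader subunit that also serves Sin3 complexes, led the rises, at 28.4 CPM with palmitate and 16.8 CPM with vehicle (0.75). Ing1 and Kansl1 were 0.28 and 0.24 higher. Of 20 tested writers outside the chosen families, 6 were higher (30%) and 2 lower (10%), and the 40% called was below the 52.8% of all tested genes. The Polycomb repressive complex 1 subunits moved in opposite directions, Bmi1 by 0.36 and Rnf2, its ubiquitin ligase partner, by -0.36, and Kat14 was 0.44 higher. Of 11 such erasers, 6 were higher (54.5%) and 2 lower (18.2%). Hr, a JmjC demethylase and nuclear receptor corepressor known from skin and hair, averaged 80.0 CPM with palmitate and 44.1 CPM with vehicle (0.86), Jmjd6 was 0.25 higher and Jmjd1c was 0.18 lower. Readers, which bind the marks, were higher in 12 of 25 (48%) and lower in 6 (24%), with L3mbtl2 0.33, Bptf 0.22 and Cbx1 0.21 higher.

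Enzymes of the acetyl-CoA supply were higher in 4 of 7 and lower in 0. For this and the following short lists, the background was 27.4% of all tested genes higher and 25.4% lower. Acly, which makes cytosolic and nuclear acetyl-CoA from citrate, averaged 482 CPM with palmitate and 423 CPM with vehicle (0.19), but its difference relative to its neighbours was -0.02. The pyruvate dehydrogenase subunits Dld and Dlat were 0.27 and 0.10 higher. Methyl donor enzymes held 5 higher and 3 lower of 13, with Mtap 0.25, Mthfd1 0.22 and Mat2b 0.21 higher, where Mthfd1 gave -0.02 relative to its neighbours. Genes of NAD supply and use were higher in 6 of 9 and lower in 1. Nampt, the rate-limiting enzyme of NAD salvage, averaged 107 CPM with palmitate and 95.2 CPM with vehicle (0.16, but -0.04 relative to its neighbours), Parp1 was 0.15 higher, and the NAD-consuming enzyme Cd38 was lower, at 27.2 CPM with palmitate and 34.9 CPM with vehicle (-0.36). In 2-oxoglutarate metabolism, 5 of 9 were higher and 2 lower, with Sdhb 0.13 and Sdha 0.13 higher and Idh1, which makes 2-oxoglutarate, 0.16 lower. The values of the partner genes in this and the preceding paragraphs are log2 fold changes of genes called by edgeR.

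**Figure D4:**
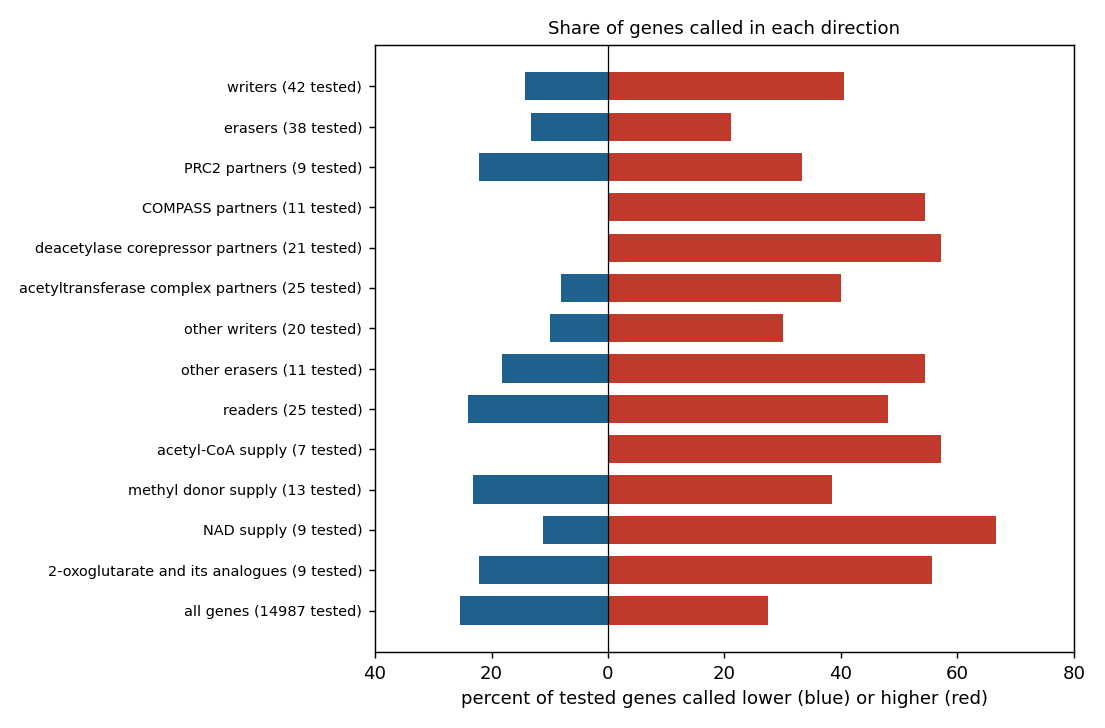
Percent of tested genes called lower (blue, left of 0) or higher (red, right of 0) with palmitate, for writers, erasers, 11 lists of partner and cofactor genes, and all genes tested; the number tested stands beside each name. Writers have 40.5% higher and 14.3% lower, erasers 21.1% higher and 13.2% lower, and all genes 27.4% higher and 25.4% lower.

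The libraries held 22.5, 22.7 and 22.9 M counts with palmitate and 18.9, 21.9 and 21.6 M counts with vehicle, so that every palmitate library was deeper. The epithelial markers Epcam, Cdh1, Krt8 and Krt18 were abundant, with Krt18 at 1079 CPM with palmitate and 1445 CPM with vehicle. Vil1 averaged 14.4 CPM with palmitate and 15.7 CPM with vehicle and was not called, and Krt20 was near 0. Cdx2 was scarce and was called higher, at 2.46 CPM with palmitate and 1.72 CPM with vehicle. The list of 7 epithelial markers summed to 5235 to 5325 CPM with palmitate and 5975 to 6024 CPM with vehicle. Marker lists of fibroblasts, leukocytes and endothelium each summed to under 3 CPM in every library. Of 18 markers of dividing cells, 13 were higher with palmitate and 1, Ccna2, was lower, where 27.4% and 25.4% of all tested genes were. Their sum was 4970 to 4994 CPM with palmitate and 4334 to 4365 CPM with vehicle. The marker values do not allow for position on the chromosome. Rrm2, a subunit of the enzyme that makes deoxynucleotides, was 0.57 higher and the replication clamp Pcna 0.44 higher. Ezh2 and Dnmt1 are known to be most abundant in dividing cells, and here Ezh2 was higher and Dnmt1 not called. The part that cell division had in these values was not tested.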

How the data were processed

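Gene counts from 6 libraries of CMT93 spheroids were used as deposited, raw and whole, for 23399 genes. The count columns lack a letter that the library names in the labels carry, and were matched to samples by treatment code and replicate number. The authors' deposited gene table gives log2 fold changes, p-values, q-values and a score, the signed −log10 of the p-value, which was not used. The submitters' processing notes name mm39, DESeq2 1.34.0, STAR 2.6.1, HTSeq and FastQC 0.11.8. The sources used here do not say whether strand was used in counting, so reads of overlapping or antisense genes may be shared.

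All genes were tested with edgeR 4.0.16 under R 4.3.3 (TMM, filterByExpr with a minimum count of 10, glmQLFit with robust estimation, glmQLFTest, two-sided), adjusted by Benjamini-Hochberg over 14987 genes at 0.05. CPM are TMM-normalised, and SE is the log2 fold change over the root of its F. Members and gene lists were chosen with earlier results of these data known. Named genes are, per family, the called member with the greatest rise, the one with the greatest fall and the member of smallest p, a fixed panel of 25 genes, and up to 3 called genes per partner list by smallest p. Other members are given by counts or where a family is described.

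The comparison was repeated with DESeq2 1.42.0, limma-voom (limma 3.58.1), glmTreat, size factors by median of ratios, no count filter, the replicate number as a block, members with an established nuclear substrate, and each library left out in turn. Thinning to the shallowest total and testing relative to neighbouring genes were added after the data were seen. Exon lengths came from GENCODE M21 on GRCm38. Neighbours came from RefSeq on GRCm38.p6, matched by Ensembl identifier, or by symbol where that failed, for 89.8% of tested genes. The test was tried on simulated counts of 14808 genes, where it recovered 50% of the 1.2-fold changes and 88%, 86% and 96% of those set at 1.5, 2 and 3-fold, with 4 false calls. Libraries of a group differed by 1.20 to 1.38 times counting noise (chi-square over degrees of freedom), so none was taken for a copy. With 18.9 to 22.9 M counts, relative counting error is greatest for scarce genes such as Nsd1 and Dnmt3b. Figures were drawn with matplotlib 3.10.9.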

Additional observations from a re-analysis of the deposited data

How the results depend on the processing

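The count of 36 called members stayed within 1.5 times in each alternative except glmTreat, which called 5 members, 3 writers, 2 erasers and 9 partner genes against a minimum fold of 1.2. DESeq2 called 26 members (18 higher, 8 lower) and 15 writers, against 23 by edgeR. The calls it did not make were Ezh1, Prmt1, Prmt2, Prmt9, Kat8, Kmt2a, Kmt5c, Setd2, Kdm1b and Kdm5b. Size factors and thinning each gave 24 higher and 12 lower. Of the 36 calls, 25 held in 12 alternatives, leaving aside glmTreat and the neighbour setting. Calls lost without a library stand beside the genes concerned.

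The writers-minus-erasers difference of medians was 0.0545 with no count filter, 0.0608 with DESeq2, 0.0654 with limma-voom, 0.0570 after thinning, 0.0344 relative to neighbouring genes and 0.0537 with members of established nuclear substrate, against 0.0624. Leaving out each library moved it between 0.0393 and 0.0957. With the replicate number as a block it was 0.0592, and the block changed no other call among the members (36 called). Same-numbered libraries did not deviate together (correlations -0.0045, 0.0085 and 0.0072), so the numbers were not taken as pairs.

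Among called members and named partner genes, the direction relative to neighbouring genes turned for Ezh1 (-0.119), Setd7 (0.0506), Kat6a (-0.0440), Acly (-0.0213), Mthfd1 (-0.0153), Nampt (-0.0361), Nsd3 (-0.0604), Setd3 (-0.0617) and Prmt9 (-0.0095). Leaving out each library turned the uncalled Kat2b (between -0.00047 and 0.0804) and Prmt5 (between -0.0023 and 0.0476). The cause was not tested. Depth limits what can be said of Kdm4d and Kdm5d, at 1 to 9 counts a library.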
